A study of Mus musculus with 16 samples.

Results

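Muscle contracts when calcium is let out of the sarcoplasmic reticulum and relaxes when the calcium is pumped back. The 10 genes described here encode the central proteins of that cycle in the muscle fibre: Cacna1s, Ryr1, Jph1, Trdn, Casq1, Casq2, Pvalb, Atp2a1, Atp2a2 and Sln. They were chosen by name, and a probe was taken for a gene where the RefSeq accession in its array annotation belongs to that gene. This gave 14 probes of the 55681 on the array: 4 genes had 2 probes and 6 had 1. All 14 passed the filter on dim probes, so all 10 genes were among the 21281 genes tested.

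RNA came from quadriceps, a thigh muscle, of male mice aged 8 weeks, and was hybridised in 1 colour (Cy3) to Agilent arrays. The groups were mFoxO-TKO mice fasted for 24 h, mFoxO-TKO mice fed freely, wild type (WT) mice fasted for 24 h and WT mice fed freely, with 4 arrays each. In mFoxO-TKO mice Foxo1, Foxo3 and Foxo4 are deleted by a Cre recombinase under the human α-actin (HSA) promoter, which acts in skeletal muscle fibres, so other cells of the muscle keep the genes. The sources used here do not say that the 4 arrays of a group stand for separate mice, so p-values measure the spread between these arrays.

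The cycle starts at the triad, where a fold of the surface membrane, the T-tubule, meets the sarcoplasmic reticulum. A voltage sensor in the T-tubule opens the ryanodine receptor, and calcium held by calsequestrin inside the reticulum flows into the cytosol. Parvalbumin takes up calcium in the cytosol of fast fibres, and the SERCA pumps return it to the reticulum.

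Levels are log2 processed signals minus the 75th percentile of the same array, so 1 unit is a doubling and 0 is that percentile. Levels of different probes are not on a common scale and are compared only within a probe. Tests were limma fits over all genes with Benjamini-Hochberg adjustment, at an adjusted p under 0.05, and a gene with several probes was read from its brightest. A log2 difference is given with its standard error.

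The targeted genes were read first. Foxo1 lay between 1.77 and 2.12 in fasted and between 0.66 and 1.63 in fed mFoxO-TKO muscle, against 4.92 to 5.98 in fasted and 2.66 to 3.11 in fed WT muscle. For Foxo4 no mFoxO-TKO array was well above background, while all WT arrays were. Foxo3 did not pass in either feeding state (mFoxO-TKO minus WT -0.75 ± 0.27 fasted, adjusted p = 0.0976, and 0.74 ± 0.27 fed, adjusted p = 0.299), and a probe outside the deleted part would not check the deletion. All 7 myofibre markers were well above background on all 16 arrays, and none passed in any comparison by its brightest probe. Another probe of Ttn, titin, named after its values were seen, was higher with fasting in mFoxO-TKO (0.51 ± 0.13, adjusted p = 0.0237) and for knockout in fasted muscle (0.45 ± 0.13, adjusted p = 0.0375).

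Replicates 1 and 2 of each group shared slide 1, and replicates 3 and 4 shared slide 2. Each group filled 1 column of a slide, and column and group effects thus cannot be told apart. Probes well above background made up 45.0% to 75.2% of all, the lowest share being on replicate 1 of fasted mFoxO-TKO. That array also had the most spots flagged as uneven (2.86%), so values without it are given where a result rests on it.

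Casq1, a calsequestrin of skeletal muscle fibres and a calcium store protein of their reticulum, was the member that moved. Its level fell with fasting in WT muscle, to 5.64, 5.92, 5.24 and 5.81 in fasted WT, against 6.39, 6.09, 6.68 and 6.70 in fed WT. It was 6.97, 6.32, 6.40 and 6.17 in fasted mFoxO-TKO muscle and 6.42, 6.22, 6.63 and 6.48 in fed mFoxO-TKO muscle. Every fasted WT array was below every other array, and the other 3 groups overlapped.

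The Casq1 difference in WT, fasted minus fed, was -0.82 ± 0.20, a 1.76-fold lower signal (limma, adjusted p = 0.00835). In mFoxO-TKO muscle it was 0.03 ± 0.20 (95% interval -0.40 to 0.45, adjusted p = 0.957). In fasted muscle mFoxO-TKO exceeded WT by 0.82 ± 0.20, or 1.76-fold (adjusted p = 0.0158), while in fed muscle the difference was -0.03 ± 0.20 (adjusted p = 1). The test of the difference itself, knockout by fasting, gave 0.84 ± 0.28 and did not pass (adjusted p = 0.219). The fasting comparison in WT and the knockout comparison in fasted muscle share the fasted WT arrays, so they are not independent of each other.

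The direction of the Casq1 difference was the same on both slides, but not each slide alone passed. The WT difference was -0.46 on slide 1 (adjusted p = 0.401) and -1.17 on slide 2 (adjusted p = 0.0124), and -0.82 with slide as a block (adjusted p = 0.00775). The fasted mFoxO-TKO minus WT difference was 0.87 on slide 1 (adjusted p = 0.188) and 0.77 on slide 2 (adjusted p = 0.0747), and 0.82 with slide as a block (adjusted p = 0.0138). Without replicate 1 of fasted mFoxO-TKO it was 0.65 (adjusted p = 0.0348). Without replicate 3 of fasted WT it was 0.68 and did not pass (adjusted p = 0.054). In bulk muscle, fewer cells of a type and less RNA per cell cannot be told apart.

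**Figure D1:**
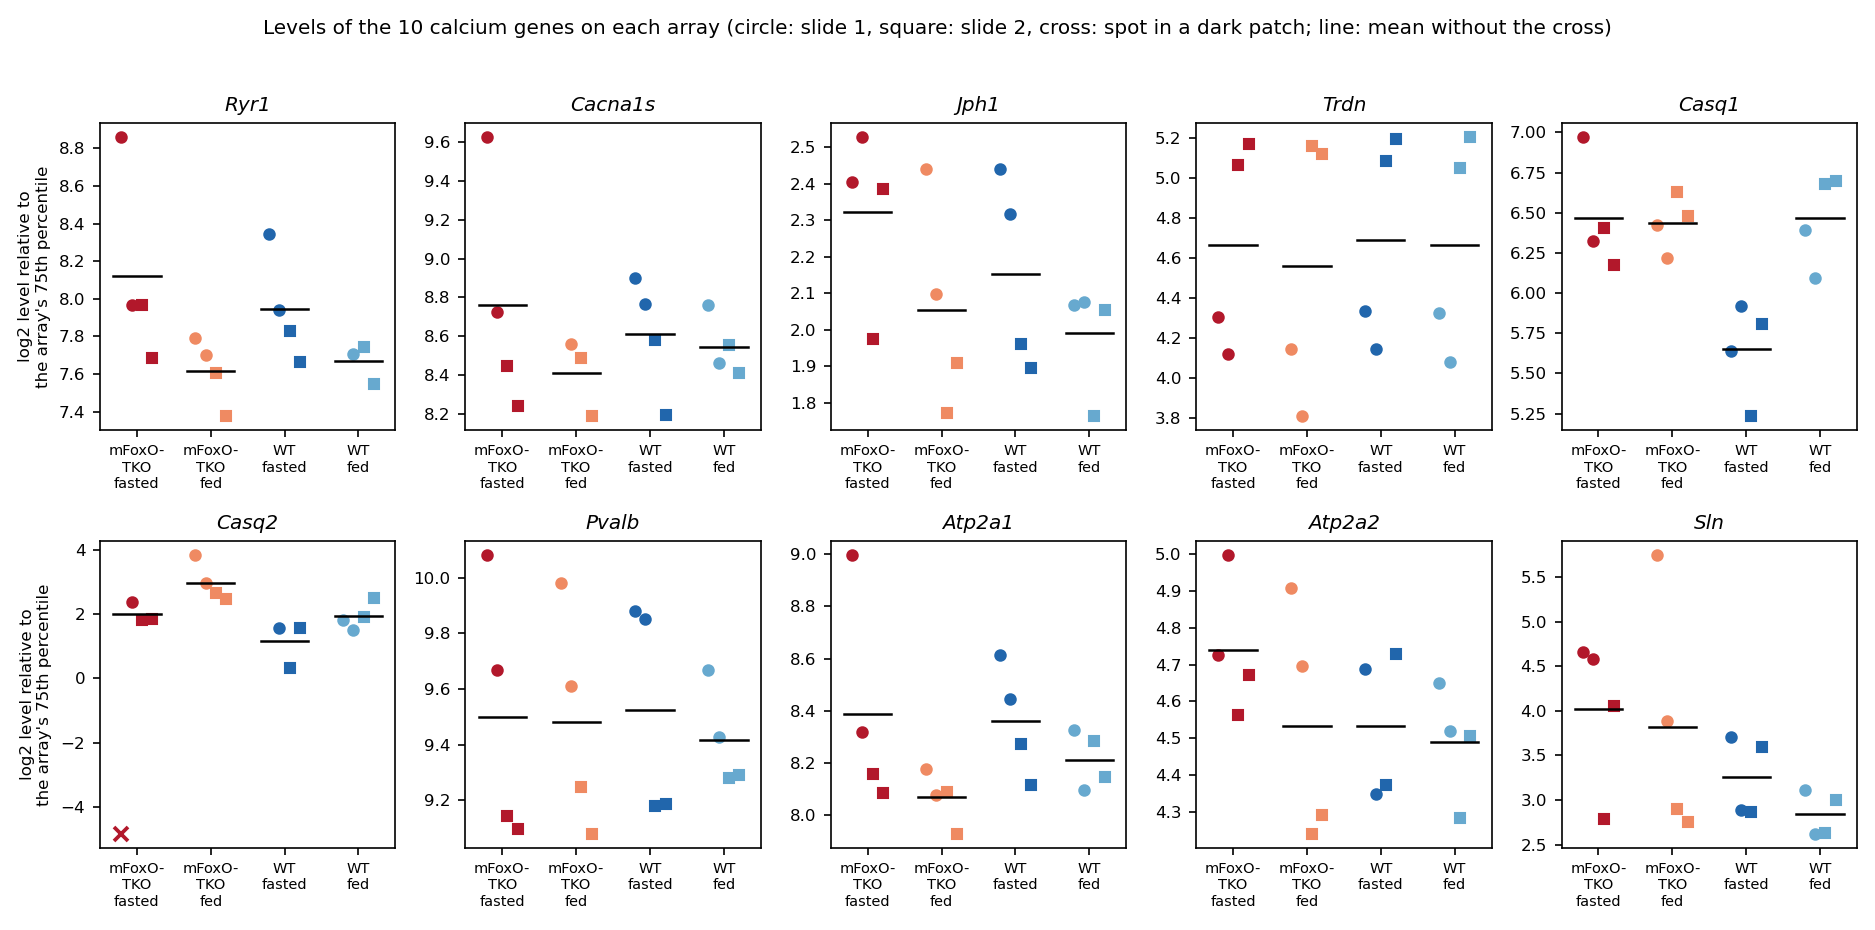
Level of each calcium gene on each array (log2 signal minus the array's 75th percentile, brightest probe), with the groups in the order fasted mFoxO-TKO, fed mFoxO-TKO, fasted WT and fed WT. Circles are slide 1 arrays, squares are slide 2 arrays, black lines are group means. The fasted WT arrays of Casq1, at 5.24 to 5.92, lie below all others, and the cross in the Casq2 panel, at -4.82, is a spot in a dark patch that its group's line leaves out.

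Across the 10 genes, fasting in WT brought 0 higher and 1 lower, against 20.8% of all genes tested that passed in either direction. Fasting in mFoxO-TKO brought 0 of 10 (8.51% of all genes). Knockout brought 1 of 10, higher, in fasted muscle (9.41% of all genes) and 0 of 10 in fed muscle (1.02%), and 0 of 10 passed for the knockout by fasting term (1.15%). At an unadjusted p under 0.05 the counts were 1 for fasting in WT, 2 for fasting in mFoxO-TKO, 1 for knockout in fasted muscle, 0 in fed muscle and 1 for the knockout by fasting term. The median difference of the 10 was 0.20 for fasting in mFoxO-TKO and 0.09 for fasting in WT, against medians over all genes of 0.04 and 0.02. For knockout it was 0.16 in fasted and 0.01 in fed muscle, against 0.04 and 0.01 over all genes. For the knockout by fasting term it was 0.13, against 0.02 over all genes.

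**Figure D2:**
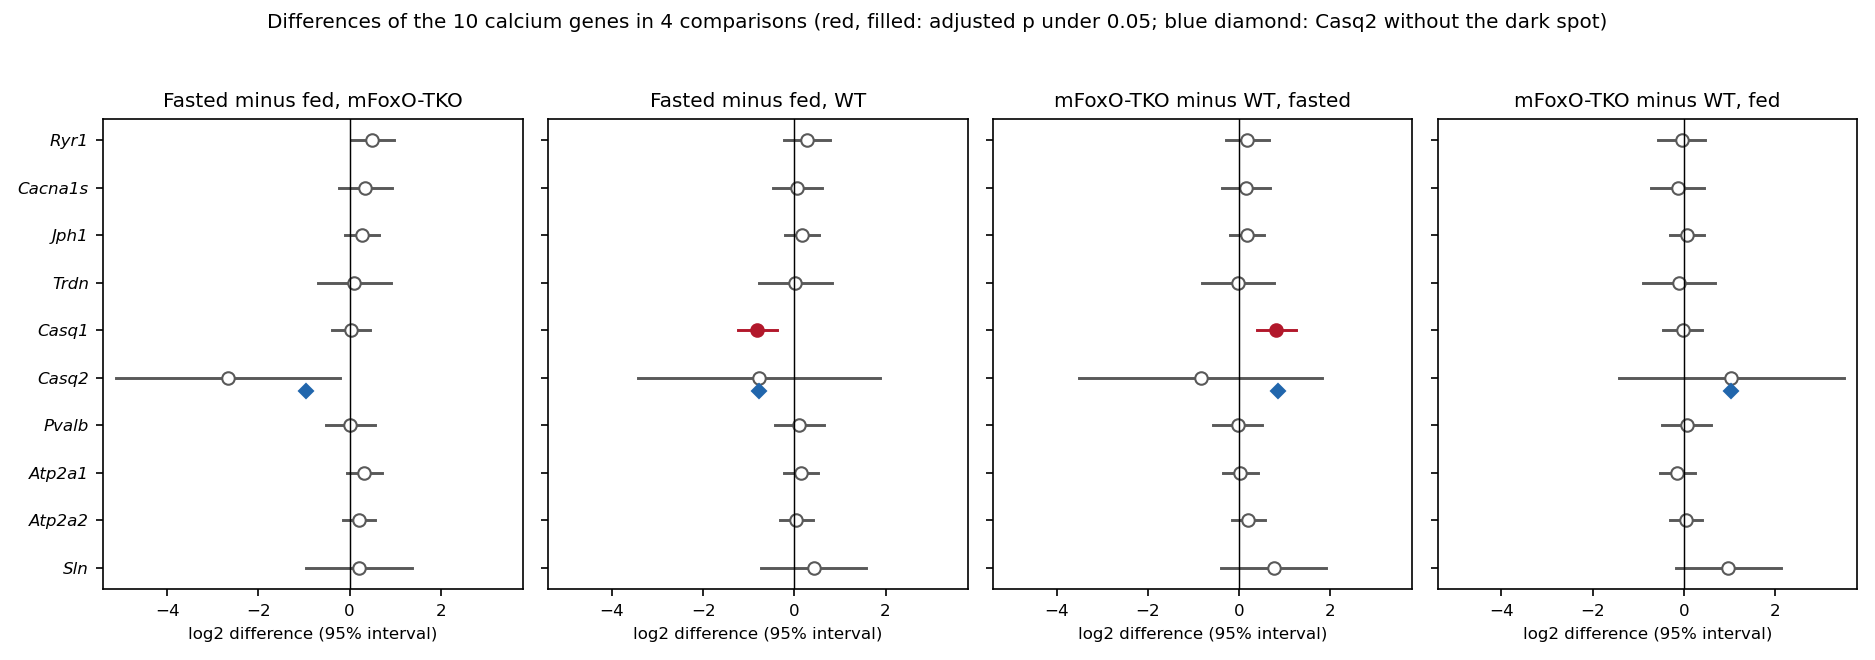
Log2 difference of each calcium gene with its 95% interval in the 2 fasting and the 2 knockout comparisons. Red filled points have an adjusted p under 0.05: Casq1 alone, at -0.82 for fasting in WT and 0.82 for knockout in fasted muscle. The blue diamonds give Casq2 without the dark spot, which moves it to 0.86 for knockout in fasted muscle.

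The voltage sensor and the release channel did not pass in any comparison of the main fit. Cacna1s, the pore subunit of the L-type channel that senses voltage in the T-tubule, had levels of 9.62, 8.73, 8.45 and 8.24 in fasted mFoxO-TKO and of 8.56, 8.49 and 8.19 in fed mFoxO-TKO, where replicate 1 was an uneven spot and was left out. It had 8.90, 8.77, 8.58 and 8.20 in fasted WT and 8.76, 8.46, 8.55 and 8.41 in fed WT. All 4 groups overlapped, and the high value was the first replicate of fasted mFoxO-TKO. Its differences ran from -0.13 to 0.35, the largest being fasting in mFoxO-TKO (0.35 ± 0.27, 95% interval -0.23 to 0.92, adjusted p = 0.511). The other Cacna1s probe, adjusted over all kept probes as are all second probes here, gave 0.21 ± 0.12 there (adjusted p = 0.342) and 0.25 ± 0.12 for knockout in fasted muscle (adjusted p = 0.237), where its fasted groups did not overlap.

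Ryr1, the ryanodine receptor of skeletal muscle and the channel through which the stored calcium leaves, had 1 probe. Its levels were 8.86, 7.97, 7.97 and 7.69 in fasted mFoxO-TKO and 7.79, 7.70, 7.60 and 7.38 in fed mFoxO-TKO. They were 8.35, 7.94, 7.83 and 7.66 in fasted WT and 7.71, 7.75 and 7.55 in fed WT, where replicate 1 was uneven and was left out. The groups overlapped, with the first replicate highest in both fasted groups.

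For Ryr1 fasted minus fed was 0.50 ± 0.22 in mFoxO-TKO (adjusted p = 0.199) and 0.28 ± 0.24 in WT (adjusted p = 0.49). With replicate number as a block the same difference passed (0.50, adjusted p = 0.0314). Arrays of the same number deviated together in this comparison, but the number also sets the slide and the row on it, so pairing and position cannot be told apart. With slide as a block the Ryr1 difference did not pass (0.50, adjusted p = 0.0946), and without replicate 1 of fasted mFoxO-TKO it was 0.25 (adjusted p = 0.404). The knockout differences of Ryr1 were 0.18 ± 0.22 in fasted muscle (adjusted p = 0.717) and -0.05 ± 0.24 in fed muscle (adjusted p = 1).

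The proteins that hold the triad together did not pass either. Jph1, junctophilin 1, ties the T-tubule to the reticulum. It ranged from 1.98 to 2.53 in fasted mFoxO-TKO, from 1.77 to 2.44 in fed mFoxO-TKO, from 1.89 to 2.44 in fasted WT and from 1.77 to 2.08 in fed WT. Its differences were 0.27 ± 0.18 for fasting in mFoxO-TKO (adjusted p = 0.422), 0.16 ± 0.18 for fasting in WT (adjusted p = 0.599), 0.17 ± 0.18 for knockout in fasted muscle (adjusted p = 0.648) and 0.06 ± 0.18 in fed muscle (adjusted p = 1). All groups overlapped.

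Trdn encodes triadin, which links calsequestrin to the ryanodine receptor. Its levels followed the slide in every group: they were 4.30 and 4.12 on slide 1 and 5.07 and 5.17 on slide 2 in fasted mFoxO-TKO, and 4.15 and 3.81 against 5.16 and 5.12 in fed mFoxO-TKO. Fasted WT had 4.33 and 4.14 on slide 1 and 5.09 and 5.20 on slide 2, and fed WT had 4.33 and 4.08 against 5.05 and 5.21. In no group did the slides overlap, and on each slide the groups did. The 4 differences lay between -0.11 and 0.10 with a standard error of 0.37, which is a wide interval (for fasting in WT -0.77 to 0.82). The main fit left slide out, so this standard error includes the spread between the slides. The other Trdn probe gave differences from -0.12 to 0.18, with no pass.

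Casq2 is the calsequestrin of the heart and is also found in slow fibres. In fed mFoxO-TKO its levels were 3.83, 2.95, 2.65 and 2.47, and in fed WT 1.83, 1.49, 1.91 and 2.50. In fasted WT they were 1.56, 0.33 and 1.56, with replicate 1 uneven and left out. In fasted mFoxO-TKO they were -4.82, 2.37, 1.82 and 1.84. The first of these is far below every other Casq2 value. The other 3 fasted mFoxO-TKO values also lay below all fed mFoxO-TKO values, and the fed mFoxO-TKO and fed WT values overlapped.

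That spot had a raw median of 11 against a local background of 14, on an array whose median local background was 44. Of the 16 arrays it is the one with spots whose local background was under 0.5 times its array's median, 1157 spots or 1.95% of them, and the scanner software did not flag the Casq2 spot as uneven. With the spot in place the standard error of a Casq2 difference was 1.16 to 1.25 and none passed (fasting in mFoxO-TKO -2.67, adjusted p = 0.186, and in WT -0.78, adjusted p = 0.737). With such spots left out, a choice made after seeing the data, none passed either. Fasted minus fed was then -0.97 in mFoxO-TKO (adjusted p = 0.129) and -0.78 in WT (adjusted p = 0.156), and mFoxO-TKO minus WT was 0.86 in fasted muscle (adjusted p = 0.214) and 1.05 in fed muscle (adjusted p = 0.222). The knockout difference in fasted muscle was -0.85 with the spot (adjusted p = 0.766), so its sign rests on that spot.

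**Figure D3:**
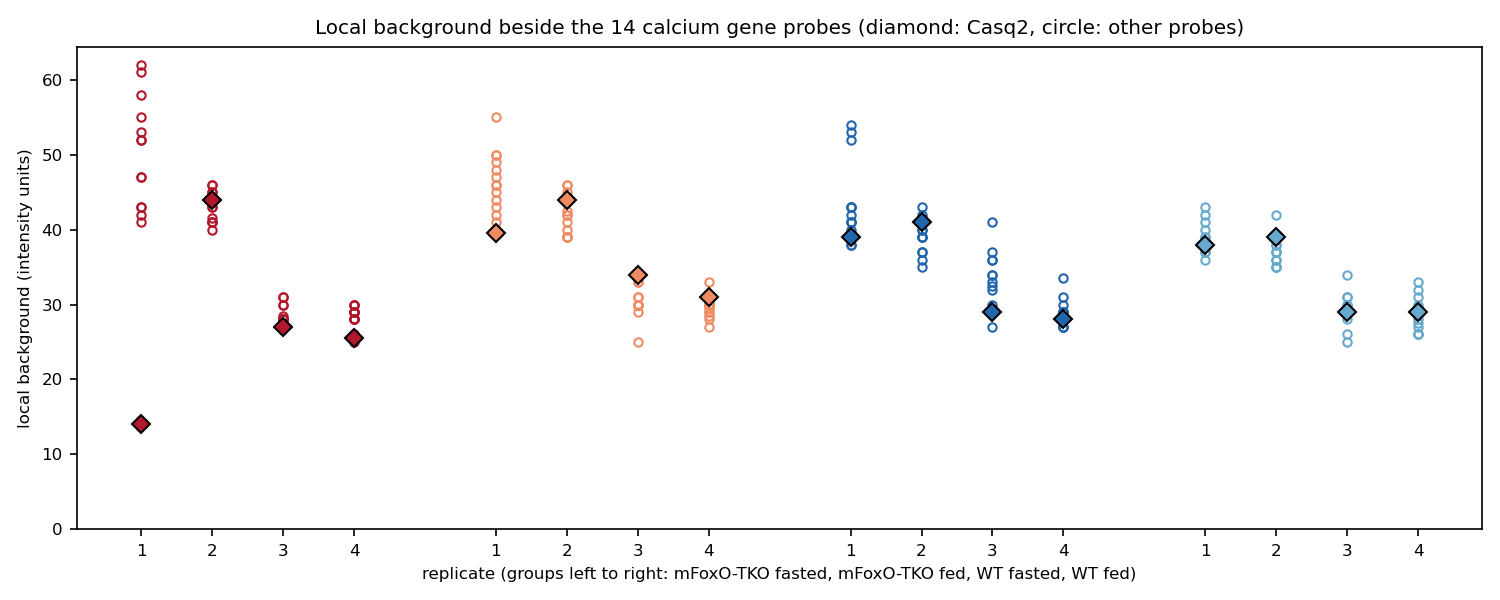
Local background beside each of the 14 calcium gene probes (intensity units), by array, with the groups in the order fasted mFoxO-TKO, fed mFoxO-TKO, fasted WT and fed WT. The diamonds are Casq2. On replicate 1 of fasted mFoxO-TKO the Casq2 spot has a local background of 14, below all other points in the plot.

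Pvalb, parvalbumin, the soluble calcium buffer of fast fibres, had levels of 9.10 to 10.08 in fasted mFoxO-TKO, 9.08 to 9.98 in fed mFoxO-TKO, 9.18 to 9.88 in fasted WT and 9.28 to 9.67 in fed WT. In every group both slide 1 arrays were above both slide 2 arrays, and the groups overlapped. The differences were 0.02 ± 0.25 for fasting in mFoxO-TKO, 0.11 ± 0.25 for fasting in WT, -0.03 ± 0.25 for knockout in fasted muscle and 0.06 ± 0.25 in fed muscle (adjusted p from 0.83 to 1). The other Pvalb probe gave -0.17 to 0.08 and no pass.

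The pumps did not pass. Atp2a1 encodes SERCA1, the calcium pump of fast fibres. It had levels of 8.996, 8.32, 8.16 and 8.08 in fasted mFoxO-TKO and 8.18, 8.08, 8.09 and 7.93 in fed mFoxO-TKO. In WT it had 8.61, 8.44, 8.27 and 8.11 fasted and 8.33, 8.10, 8.28 and 8.15 fed. The ranges overlapped, with the highest value again on the first replicate of fasted mFoxO-TKO. The fasting difference of Atp2a1 was 0.32 ± 0.18 in mFoxO-TKO (95% interval -0.06 to 0.70, adjusted p = 0.326) and 0.15 ± 0.18 in WT (adjusted p = 0.641). Knockout differed by 0.03 ± 0.18 in fasted muscle and by -0.14 ± 0.18 in fed muscle (adjusted p = 0.956 and 0.985).

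Atp2a2, the SERCA2 pump of slow fibres and the heart, ranged from 4.56 to 4.997 in fasted mFoxO-TKO, from 4.24 to 4.91 in fed mFoxO-TKO, from 4.35 to 4.73 in fasted WT and from 4.28 to 4.65 in fed WT. Its differences were 0.21 ± 0.17 for fasting in mFoxO-TKO (adjusted p = 0.531), 0.04 ± 0.17 for fasting in WT (adjusted p = 0.899), 0.21 ± 0.17 for knockout in fasted muscle (adjusted p = 0.535) and 0.04 ± 0.17 in fed muscle (adjusted p = 1). The other Atp2a2 probe ran from -0.08 to 0.12. None passed and the groups overlapped.

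Sln encodes sarcolipin, a small membrane protein that binds the SERCA pumps and lowers the calcium moved per ATP. Its levels were 4.66, 4.58, 2.79 and 4.06 in fasted mFoxO-TKO and 5.75, 3.88, 2.89 and 2.75 in fed mFoxO-TKO. They were 3.70, 2.88, 2.87 and 3.59 in fasted WT and 3.11, 2.62, 2.63 and 3.00 in fed WT. The mFoxO-TKO arrays spread more widely, and each of those groups held arrays inside the WT range.

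The SD of Sln was 0.86 in fasted and 1.38 in fed mFoxO-TKO, against 0.45 in fasted and 0.25 in fed WT (n = 4 each). Knockout differed by 0.76 ± 0.54 in fasted muscle (adjusted p = 0.471) and by 0.98 ± 0.54 in fed muscle (95% interval -0.18 to 2.14, adjusted p = 0.665). The fasting difference of Sln was 0.20 ± 0.54 in mFoxO-TKO and 0.42 ± 0.54 in WT (adjusted p = 0.876 and 0.663). The fed knockout difference was 1.95 on slide 1 and 0.01 on slide 2. The array with the highest Sln value, replicate 1 of fed mFoxO-TKO, also had the highest mean over the 12 slow fibre genes in its group, 5.55 against 4.96 to 5.23, and the part of fibre type in Sln was not tested.

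Several of the calcium genes stood highest on replicate 1 of fasted mFoxO-TKO: Ryr1, the brightest Cacna1s probe, Casq1, Atp2a1 and the brightest Pvalb probe. The mean over the 7 myofibre markers was also highest on that array, 8.59, against 7.83 to 8.15 on the other 3 arrays of its group. Its part in these values was not tested.

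The fall of Casq1 in fasted WT was then set beside 82 other calcium genes, of which 77 were tested, each by its brightest probe. With fasting in mFoxO-TKO 1 was higher and 1 lower (median difference 0.02), where 8.51% of all genes passed (median 0.04). With fasting in WT 4 were higher and 12 lower (median -0.07), where 20.8% of all genes passed (median 0.02). For knockout in fasted muscle 7 were higher and 2 lower (median 0.06), where 9.41% of all genes passed (median 0.04). None passed for knockout in fed muscle (median -0.06) or for the knockout by fasting term (median 0.09), where 1.02% and 1.15% of all genes passed. The 16 calls with fasting in WT and the 9 for knockout in fasted muscle are near the shares of all genes, so these totals single out nothing about the 77 genes. Over all genes 2392 were higher and 2036 lower with fasting in WT, and 939 and 1064 for knockout in fasted muscle. The split by direction was not tested. Other probes of a few genes passed where the brightest did not, and they are given with their lists. Among those that passed the knockout by fasting term by such a probe were Calm2 and Atp2b3.

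Of the 26 tested genes of the release channel and the triad, 8 were lower and none higher with fasting in WT (median -0.12). Of all 21281 genes 20.8% passed there in either direction, 2036 lower and 2392 higher. In fasted muscle 4 of the 26 were higher in mFoxO-TKO and 1 lower (median 0.17), beside 9.41% of all genes (939 higher and 1064 lower). Whether calls gathered in this list was not tested. Their mean level was 4.33 to 4.85 in fasted mFoxO-TKO and 4.46 to 4.55 in fed mFoxO-TKO, against 4.10 to 4.401 in fasted WT and 4.50 to 4.63 in fed WT.

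Jph2, junctophilin 2, a relative of Jph1 that also ties the T-tubule to the reticulum, had the largest fall. Its levels were 2.33, 2.09, 1.87 and 1.71 in fasted mFoxO-TKO and 2.61, 2.47, 2.42 and 2.45 in fed mFoxO-TKO. They were 1.09, 1.64, 0.90 and 0.30 in fasted WT and 2.86, 2.50, 2.77 and 2.72 in fed WT. Fasted WT was below all other arrays, and fasted mFoxO-TKO was below fed mFoxO-TKO without overlap.

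The Jph2 difference, fasted minus fed, was -0.48 ± 0.22 in mFoxO-TKO (adjusted p = 0.207) and -1.73 ± 0.22 in WT (adjusted p = 5.94e-05, with -1.31 on slide 1 and -2.15 on slide 2). In fasted muscle mFoxO-TKO exceeded WT by 1.02 ± 0.22 (adjusted p = 0.00736, with 0.84 on slide 1 and 1.19 on slide 2). The knockout by fasting term was 1.24 ± 0.31 and did not pass (adjusted p = 0.0743).

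Sypl2, mitsugumin 29, a membrane protein of the triad, had levels of 4.39, 4.09, 3.62 and 3.71 in fasted mFoxO-TKO and 4.38, 4.42, 4.405 and 4.35 in fed mFoxO-TKO. It had 2.91, 3.14, 2.11 and 2.26 in fasted WT and 4.04, 3.98, 3.99 and 4.19 in fed WT. Again fasted WT was below all other arrays. The fasting difference of Sypl2 was -0.43 ± 0.21 in mFoxO-TKO (adjusted p = 0.252) and -1.45 ± 0.21 in WT (adjusted p = 0.00021, with -0.99 on slide 1 and -1.90 on slide 2). Knockout in fasted muscle gave 1.35 ± 0.21 (adjusted p = 0.00074, with 1.22 and 1.48 on the slides), and the knockout by fasting term 1.01 ± 0.30 (adjusted p = 0.148). The other Sypl2 probe gave -0.95 ± 0.19 for fasting in WT (adjusted p = 0.00242) and 0.87 ± 0.19 for knockout in fasted muscle (adjusted p = 0.00899).

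Calm2 encodes calmodulin, the calcium sensor that binds the ryanodine receptor and many enzymes. Its levels were 7.16, 6.25, 5.98 and 6.06 in fasted mFoxO-TKO and 7.10, 6.68, 6.64 and 6.54 in fed mFoxO-TKO. They were 5.03, 5.20, 4.93 and 4.90 in fasted WT and 6.92, 6.76, 6.54 and 6.67 in fed WT. Fasted WT stood below all others.

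The Calm2 difference, fasted minus fed, was -0.38 ± 0.22 in mFoxO-TKO (adjusted p = 0.343) and -1.70 ± 0.22 in WT (adjusted p = 6.07e-05, with -1.72 on slide 1 and -1.68 on slide 2). Knockout in fasted muscle gave 1.35 ± 0.22 (adjusted p = 0.000874, with 1.58 and 1.11 on the slides). The knockout by fasting term was 1.33 ± 0.31 by the brightest probe (adjusted p = 0.0519). By the other Calm2 probe it was 1.18 ± 0.20 and passed (adjusted p = 0.00783), and that probe also passed for fasting in mFoxO-TKO (-0.50 ± 0.14, adjusted p = 0.0366), so the probes disagree on both calls. Another probe of Asph, the gene of junctin, named after its values were seen, passed where its brightest probe did not: it fell with fasting in WT (adjusted p = 0.00897) and was higher for knockout in fasted muscle (adjusted p = 0.00545). Further Asph probes did not pass with fasting in WT (-0.01 and -0.16, adjusted p = 0.975 and 0.607). For knockout in fasted muscle they gave 0.33 and 0.20 and did not pass either (adjusted p = 0.302 and 0.579), so the Asph probes disagree.

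**Figure D4:**
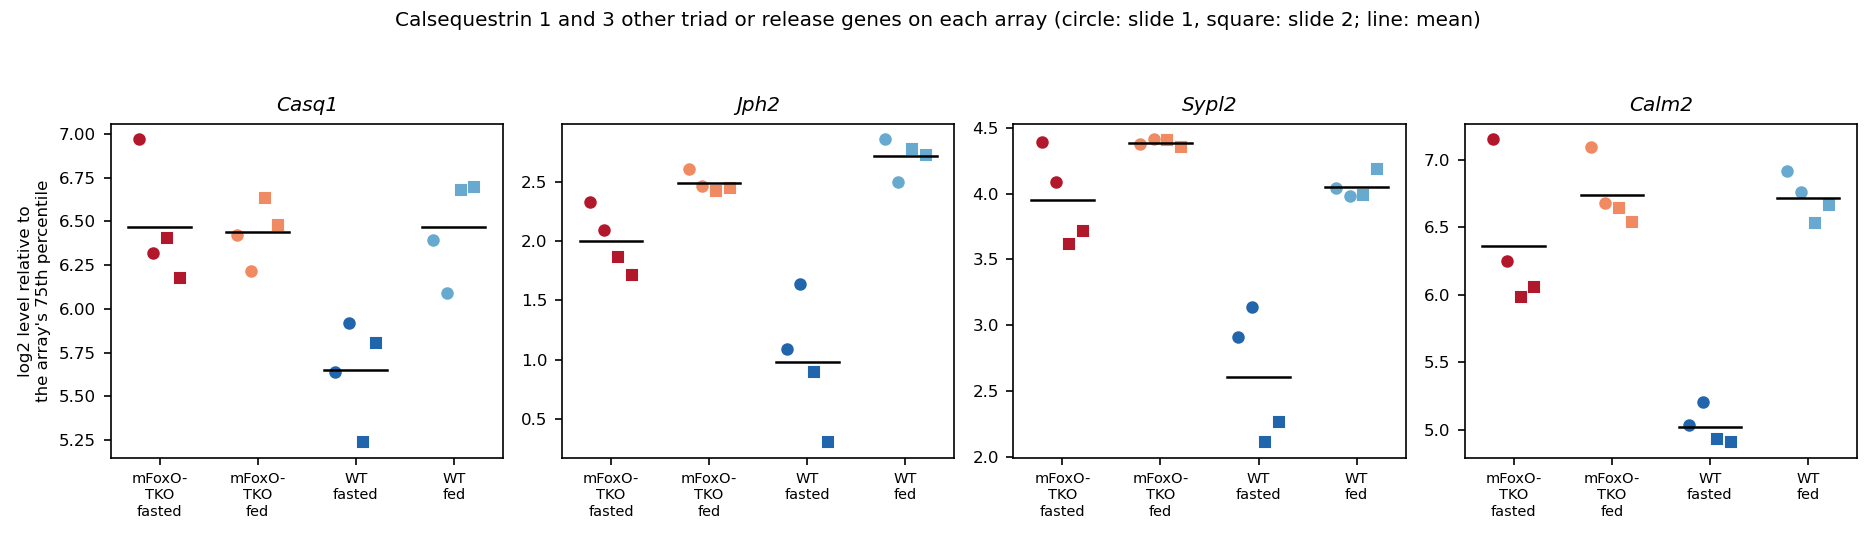
Level on each array of Casq1, Jph2, Sypl2 and Calm2 (log2 signal minus the array's 75th percentile), with the groups in the order fasted mFoxO-TKO, fed mFoxO-TKO, fasted WT and fed WT. Circles are slide 1 arrays, squares are slide 2 arrays, lines are means. In each panel the 4 fasted WT arrays lie below the other 12 arrays.

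Promoters of 3 of these genes are shown because the genes shared a low level in fasted WT. They are RefSeq sequences of GRCm38.p6, 300 bases long and spanning the gene start, read 5′ to 3′ on the minus strand, with E-box matches (CANNTG) in capitals. Casq1 is chr1:172219846-172220145, Jph2 is chr2:163397924-163398223, the first of its 2 listed starts, and Sypl2 is chr3:108226550-108226849.
Casq1: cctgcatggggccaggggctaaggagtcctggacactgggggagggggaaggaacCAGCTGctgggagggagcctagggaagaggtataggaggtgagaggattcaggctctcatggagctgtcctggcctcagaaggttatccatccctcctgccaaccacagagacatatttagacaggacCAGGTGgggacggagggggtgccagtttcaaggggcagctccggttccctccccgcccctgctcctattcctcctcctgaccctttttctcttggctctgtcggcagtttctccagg
Jph2: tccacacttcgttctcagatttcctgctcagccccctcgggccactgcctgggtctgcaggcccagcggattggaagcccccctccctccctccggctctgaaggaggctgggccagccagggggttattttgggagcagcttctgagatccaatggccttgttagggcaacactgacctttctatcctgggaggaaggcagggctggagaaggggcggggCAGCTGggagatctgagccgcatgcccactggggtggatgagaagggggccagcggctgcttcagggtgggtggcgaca
Sypl2: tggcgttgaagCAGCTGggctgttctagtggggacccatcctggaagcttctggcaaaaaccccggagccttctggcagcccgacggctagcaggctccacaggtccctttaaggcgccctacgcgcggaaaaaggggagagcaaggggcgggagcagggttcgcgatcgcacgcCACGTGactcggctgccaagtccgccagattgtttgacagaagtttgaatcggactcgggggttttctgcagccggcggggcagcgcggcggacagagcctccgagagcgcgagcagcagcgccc

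Casq1 and Sypl2 held 2 E-boxes each and Jph2 held 1. An E-box, the kind of site that muscle regulators of the MyoD family can bind, stood in 72.3% of the 32851 promoters of the table. The FoxO core GTAAACA, searched on both strands, stood in 3.65% of all promoters and in none of these 3. Of the 10 calcium genes, 6 had promoters in the table, 7 in all, for Ryr1, Cacna1s, Casq1, Casq2, Atp2a1 and 2 for Pvalb, and none of the 7 held it. The MEF2 core (3.69% of all) and TATAAA (13.6%) were in none of these 7 either, and the glucocorticoid half-site AGAACA (19% of all) was in 1 Pvalb promoter and in that of Sypl2. A match is a description of letters in this window and not a bound site.

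Of the release channel and triad list, Itpr1, the IP3 receptor channel of the reticulum, was lower with fasting in both genotypes (-0.60 ± 0.17 in mFoxO-TKO, adjusted p = 0.0379, and -0.74 ± 0.17 in WT, adjusted p = 0.00507). It was also the gene of this list that was lower in fasted mFoxO-TKO than in fasted WT (-0.58 ± 0.17, adjusted p = 0.039), named here after its value was seen. The fasting call in mFoxO-TKO was lost when any 1 of 6 arrays was left out (adjusted p up to 0.115). Dysf, dysferlin of membrane repair, was higher by 0.62 ± 0.15 in fasted mFoxO-TKO than in fasted WT (adjusted p = 0.0169, or 0.058 without replicate 2 of fasted mFoxO-TKO).

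Of 16 tested pump regulators, exchangers and surface pumps, 1 passed in any comparison by its brightest probe: Slc8a3, a sodium-calcium exchanger, rose by 0.57 ± 0.17 with fasting in WT (adjusted p = 0.0261). The other Slc8a3 probe did not pass there (0.34 ± 0.20, adjusted p = 0.255) and was lower for knockout in fasted muscle (-0.69 ± 0.20, adjusted p = 0.0374). Another probe of Atp2b3, a surface calcium pump named after its values were seen, passed where its brightest probe did not. It fell with fasting in WT (-1.01 ± 0.19, adjusted p = 0.00136), was higher for knockout in fasted muscle (1.82 ± 0.19, adjusted p = 2.04e-05) and passed the knockout by fasting term (1.42 ± 0.27, adjusted p = 0.0167), against -0.19, 0.49 and 0.58 by the brightest probe (adjusted p = 0.554, 0.125 and 0.452). Among 14 genes of store-operated and mitochondrial entry, Orai1, the pore of store-operated entry, fell with fasting in WT (-0.81 ± 0.25, adjusted p = 0.0296), and Trpm7, a cation channel, rose there (0.58 ± 0.13, adjusted p = 0.00571). Knockout in fasted muscle raised Mcu, the pore of the mitochondrial uniporter (0.72 ± 0.20, adjusted p = 0.0322), and lowered Trpm7 (-0.50 ± 0.13, adjusted p = 0.0246). By another probe Orai1 also fell with fasting in WT (-1.26 ± 0.21, adjusted p = 0.000493). That probe passed for knockout in fasted muscle as well (0.75 ± 0.21, adjusted p = 0.031). Another probe of Orai3, a relative of Orai1 named after its values were seen, fell with fasting in WT (-1.02 ± 0.25, adjusted p = 0.00817) and was higher for knockout in fasted muscle (0.87 ± 0.25, adjusted p = 0.0378). Neither the brightest Orai3 probe nor a further one passed in these comparisons. The further probe gave 0.13 for fasting in WT (adjusted p = 0.541) and -0.06 for knockout in fasted muscle (adjusted p = 0.862). By the brightest probe the Slc8a3, Orai1 and Mcu calls and the Trpm7 knockout call were each lost when any 1 of 4 or 5 of the arrays was left out (adjusted p up to 0.101).

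The calcineurin and calmodulin kinase list, which reads calcium into gene control, had 21 tested genes. With fasting in WT 2 rose and 3 fell, where 20.8% of all genes passed, including Camk2a (-0.91 ± 0.23, adjusted p = 0.00981), Nfatc2 (-0.76 ± 0.16, adjusted p = 0.00323) and Cast, the calpain inhibitor calpastatin, which rose (0.85 ± 0.21, adjusted p = 0.00762). With fasting in mFoxO-TKO Myoz2, a calcineurin-binding protein of the Z-disc, rose (0.69 ± 0.17, adjusted p = 0.0198). In fasted muscle Camk2b (0.95 ± 0.26, adjusted p = 0.0293) and Nfatc2 (0.63 ± 0.16, adjusted p = 0.021) were higher in mFoxO-TKO than in WT, where 9.41% of all genes passed. The other Nfatc2 probe passed in neither comparison (-0.45 ± 0.44 for fasting in WT, adjusted p = 0.55, and 0.06 ± 0.44 for knockout in fasted muscle, adjusted p = 0.959). By the brightest probe the Myoz2 call and the Nfatc2 call in fasted muscle were lost without any 1 of 2 arrays, and the Camk2b call without any 1 of 4 (adjusted p up to 0.0878). The other Camk2b probe also passed for knockout in fasted muscle (1.12 ± 0.16, adjusted p = 0.000312). The other Camk2a probe also passed for fasting in WT (-0.61 ± 0.16, adjusted p = 0.013). Of 4 relatives in the calcium-binding family of parvalbumin, 1 was tested, S100g. It met the filter on dim probes only through fasted WT, where all 4 arrays were well above background, against none of the 4 fed WT arrays. Its limma call with fasting in WT (adjusted p = 0.00346) rests on the group that let the probe in, so it is no separate support for a rise.

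Fibre type and cell type lists were read beside the Casq1 result. None of the 11 fast fibre genes passed in any comparison by its brightest probe, and their mean level was 7.86 to 8.68 in fasted and 7.84 to 8.30 in fed mFoxO-TKO, against 7.96 to 8.38 in fasted and 8.07 to 8.25 in fed WT. Of 5 probes of Tpm1, a tropomyosin gene of that list named after its values were seen, 2 that were not the brightest fell with fasting in WT (-2.19 ± 0.39, adjusted p = 0.000855, and -1.01 ± 0.27, adjusted p = 0.0156), and the first of them was higher for knockout in fasted muscle (1.56 ± 0.39, adjusted p = 0.0174). Of 12 slow fibre genes, 3 rose in each fast, where 8.51% of all genes passed in mFoxO-TKO and 20.8% in WT. Csrp3, a muscle LIM protein, rose by 2.60 ± 0.41 in mFoxO-TKO (adjusted p = 0.00128) and by 2.48 ± 0.41 in WT (adjusted p = 0.000479), and Ankrd2, a stretch-responsive ankyrin protein, by 2.05 ± 0.31 (adjusted p = 0.00101) and 1.96 ± 0.31 (adjusted p = 0.000327). The third was Myoz2. These are stress-responsive proteins of the sarcomere as well as slow fibre genes.

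Some markers of cells other than fibres also passed. Over all genes 8.51% passed with fasting in mFoxO-TKO, 20.8% with fasting in WT and 9.41% for knockout in fasted muscle. Of 6 fibroblast markers, 2 fell in mFoxO-TKO and 4 in WT, with mean levels of 3.41 to 4.02 in fasted and 4.54 to 4.90 in fed mFoxO-TKO, against 3.25 to 4.10 in fasted and 4.38 to 4.87 in fed WT. Smooth muscle markers brought 1 of 5 lower with fasting in WT and 1 of 5 higher for knockout in fasted muscle, both Smtn, whose fall in WT was -1.65 ± 0.22 (adjusted p = 9.38e-05). Endothelial markers brought 1 of 5 lower in WT, macrophage markers 1 of 4 tested lower in each fast and 1 higher for knockout in fasted muscle. Fat cell markers brought 1 of 4 higher in each fast, nerve and Schwann cell markers 1 of 5 higher in WT, and cardiac genes 1 of 4 higher in WT and 1 of 4 lower in mFoxO-TKO. Several of these calls were lost when 1 array was left out. The macrophage call for knockout in fasted muscle, Mrc1, was lost without any 1 of 14 arrays (adjusted p up to 0.131), the endothelial call Kdr without any 1 of 6, and the calls of Col1a1, a fibroblast marker, and Nppa, a cardiac gene, in WT without any 1 of 5 each (adjusted p up to 0.111). The Smtn call for knockout in fasted muscle and those of the fibroblast markers Dpt in WT and Col3a1 in mFoxO-TKO were lost without any 1 of 4, and Adgre1, the macrophage marker lower in mFoxO-TKO, without any 1 of 2. Cidec and Mbp in WT, of fat cells and Schwann cells, were lost without replicate 4 of fed WT (adjusted p = 0.052 and 0.0553), and Tnnt2, the cardiac gene lower in mFoxO-TKO, without replicate 2 of fed mFoxO-TKO (adjusted p = 0.0644). By another probe Csf1r, a macrophage marker, also fell in WT (adjusted p = 0.0484), while a further Csf1r probe did not (adjusted p = 0.743). Other probes passed as well for Smtn in WT (adjusted p = 0.000268) and for Cidec in WT and mFoxO-TKO (adjusted p = 0.0353 and 0.0106). For Kdr in WT and Adgre1 in mFoxO-TKO other probes did not pass (-0.07 and -0.46, adjusted p = 0.846 and 0.522). The other Smtn probe did not pass for knockout in fasted muscle (0.68, adjusted p = 0.104). Another Mbp probe had the opposite sign in WT (-0.29, adjusted p = 0.651). The part of these cells in the Casq1 result was not tested.

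Genes with a symbol were ranked by how closely their levels over the 16 arrays followed Casq1. The nearest were Nwd1 (Pearson r = 0.95), Frzb, a secreted Wnt-binding protein (r = 0.92), and 2310002D06Rik (r = 0.91), where the arrays share slides and scaling. These genes were picked for following Casq1 on the same 16 arrays, so the choice itself favoured differences like those of Casq1. Their adjusted p-values are therefore no separate support for the Casq1 pattern. Nwd1 differed by 0.08 ± 0.18 with fasting in mFoxO-TKO (adjusted p = 0.862) and by -1.13 ± 0.18 in WT (adjusted p = 0.000386), and by 1.15 ± 0.18 for knockout in fasted muscle (adjusted p = 0.000685). Its knockout by fasting term was 1.21 ± 0.25 (adjusted p = 0.0304), a call lost when any 1 of 10 arrays was left out. Frzb fell by 1.59 on the log2 scale with fasting in WT (adjusted p = 0.00531), and 2310002D06Rik by 1.22 (adjusted p = 0.00765).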

How the data were processed

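Intensities were read from the deposited scanner files, 1 per array. Per the file headers Agilent Feature Extraction 11.0.1.1 made them: it subtracted background and detrended each array, with no scaling between arrays, while the submitters' processing notes name version 9.5. The authors' deposited value table holds a score per probe, linear and rounded to whole numbers with a common 75th percentile in each column per its values, and served as an alternative. It lists 8 of the 10 calcium genes, without Ryr1 and Casq2.

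Spots flagged as uneven and control spots were left out (59305 spots other than controls), spots of a probe were averaged as log2, and each array's 75th percentile was subtracted. The filter on dim probes asked that some group have all its arrays marked well above background, which 28572 probes met. A gene was read from its brightest kept probe (21281 genes, 14149 with a symbol). R 4.3.3 and limma 3.58.1 fitted the 4 groups together, with 12 residual and 3.24 prior degrees of freedom, and p-values were adjusted over all genes by the Benjamini-Hochberg method. The fit was tested on simulated data. The number of arrays limits the precision.

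The members and the other gene lists were chosen with earlier results of these data known. Named genes are the members, up to 4 passing genes with the largest change per list and comparison, the 3 genes most like a member that passed, and the Foxo genes. Pairing of same-numbered arrays was checked by correlating their deviations from the group means over 19338 genes: the 4 correlations were 0.14 to 0.39 for fasting in mFoxO-TKO, 0.16 to 0.33 for knockout in fed muscle and 0.11 to 0.30 in fasted muscle, and 0.18, 0.06, 0.14 and 0.31 for replicates 1 to 4 in fasting in WT. Of the 16, 15 were over 0.1. In WT fasting 1 pair was not. The replicate number also sets the slide and the row on it, so these correlations cannot tell pairing from array position. It is therefore not taken to pair arrays, and the block is given as an alternative. Promoters were taken from RefSeq, and motifs were searched on both strands, with overlapping matches counted.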

Additional observations from a re-analysis of the deposited data

Results flagged for a closer look

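In 2 of 37 groups of 4 arrays, 1 array lay far from the other 3 relative to their range, and chance flags about 1 group in 20. The Casq2 level of replicate 1 of fasted mFoxO-TKO was -4.8164, with the nearest of its group at 1.8211, and this is the spot with the low local background described above. The Jph1 level of replicate 3 of fed WT was 1.7653, with the nearest of its group at 2.0552.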

How the results depend on the processing

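Of 1420 values of the calcium genes under 29 alternative settings, 1413 kept their direction, where called, and their side of the threshold, 5 lost the call and 2 gained it. The 1413 include 129 values that passed in neither setting and changed sign. The 7 changed values belong to Casq1 and Ryr1. For fasting in WT the number of calcium genes passing was 0 in place of 1 on slide 1 alone, where 8 of the genes could be tested, and 1 without any single array. For knockout in fasted muscle it was 0 in place of 1 on slide 1 alone, on slide 2 alone and in a fit of the compared groups only (Casq1 0.82, adjusted p = 0.0888), and 0 to 1 when 1 array was left out, the 0 being without replicate 3 of fasted WT. For fasting in mFoxO-TKO it was 1 in place of 0, Ryr1, with quantile normalization (0.36, adjusted p = 0.0498) and with the replicate block (0.50, adjusted p = 0.0314). The replicate block changed no other call of a calcium gene, nor any of the 50 calls named for other genes, all of which also passed with slide as a block. Of the 48 of those that could be tested within a slide, 13 passed on slide 1 and 35 on slide 2. None of the 50 reversed, and 24 were lost without at least 1 array.

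Counts over all genes moved by more than 1.5 times as follows, and the cause was not tested. For fasting in WT 4428 became 894 on slide 1. For fasting in mFoxO-TKO 1811 became 2723 with the percentile taken over probes detected on all arrays, 2758 with quantile normalization, 1190 with normexp, 993 with no filter, 2797 with slide as a block, 117 on slide 1, 3181 with the replicate block and 955 in a fit of the compared groups. For knockout in fasted muscle 2003 became 3304 with that scaling, 3059 with quantile normalization, 3023 with slide as a block, 423 on slide 1, 3372 with the replicate block and 897 in a fit of the compared groups. For knockout in fed muscle 217 became 378, 348, 129 and 109 with that scaling, quantile normalization, normexp and no filter, 326 with the authors' table, 422 with slide as a block, 33 on slide 2 and 415 with the replicate block. For the knockout by fasting term 244 became 519, 515 and 79 with that scaling, quantile normalization and no filter, 424 with uneven spots kept, 695 with the authors' table, 559 with slide as a block, 7 on slide 1, 68 on slide 2 and 699 with the replicate block. Leaving out 1 array gave 1079 to 2109 for fasting in mFoxO-TKO, 104 to 310 for knockout in fed muscle and 131 to 438 for the term.

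The share of called genes that were higher with fasting in WT was 54% in the main scaling, 37.2% with the percentile over detected probes, 42.7% with quantile normalization and 40.4% with the authors' table. For knockout in fasted muscle it was 46.9%, and 62.5% with the percentile over detected probes. For fasting in mFoxO-TKO it was 50.4%, and 63.7% with normexp. For the term it was 36.9%, against 51.4% with that scaling and 49.8% with the authors' table. That scaling moved the median of all genes for fasting in WT to -0.11, against 0.02 in the main scaling, and Casq1 was then at -0.95.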
